A study of Homo sapiens with 16 samples.

Results

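Regions of open chromatin that lacked a peak after 3 h of ACBI-1 and had one again after 24 h were examined in the human leukaemia lines DND41 and MOLT4, which derive from T-cell acute lymphoblastic leukaemia. ATAC-seq, which tags accessible DNA by Tn5 transposition, gave 1 peak list for each of 16 libraries. Peaks of all lists on chromosomes 1 to 22 and X were joined wherever 1 base or more was shared, which gave 131357 regions. A region was counted when, in at least 1 line, it had a peak in all 4 DMSO libraries, in neither 3 h ACBI-1 library and in both 24 h ACBI-1 libraries. There were 527 such regions, called returning regions here: 277 in DND41, 259 in MOLT4 and 9 in both. The regions were chosen by the presence of a peak in the 8 libraries of that line, so presence there is a description and was not tested.

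SWI/SNF complexes use ATP to slide and evict nucleosomes, and many enhancers close when their activity stops. ACBI-1 is a PROTAC that brings PBRM1 and the ATPase subunits of these complexes, SMARCA4 and SMARCA2, to the VHL ubiquitin ligase for degradation. In T-cell leukaemia such enhancers include those bound by RUNX, ETS and Ikaros family factors.

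Each line was treated with 100 nM ACBI-1, or with the solvent DMSO, and taken after 3 h or 24 h, with 2 libraries for each line, agent and time. The labels name no genetic change in either line and do not say whether the 2 libraries came from separate cultures, so any spread between them may be technical. Lines follow the sample titles; the cell line field of 8 samples names the other line, whereas the line code in the peak names matched the title in all 16 lists. Peak names carry the tag p03 in all 8 lists of 24 h and p04 in all 8 of 3 h. The sources used here do not explain the tag, so time and whatever lies behind it cannot be told apart in any value below. In a peak list, fewer open cells and a weaker signal per cell cannot be told apart either. Read depth is unknown, and a missing peak may lie below the detection limit of its list.

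The first comparison asked how many regions followed this order of loss and return. In DND41, 24799 regions had a peak in all 4 DMSO libraries (DMSO-constant regions), and the 277 returning regions were 1.12% of them. In MOLT4 the 259 returning regions were 0.957% of 27066. Of the 2638 DMSO-constant regions of DND41 absent in both 3 h ACBI-1 libraries, 10.5% had a peak in both 24 h libraries, whereas 66.1% of all DMSO-constant regions did. In MOLT4, 8.34% of 3107 absent regions were back, beside 63.1% of all. The share found at 24 h was thus lower for regions missing at 3 h than for DMSO-constant regions in general, which was not tested.

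The opposite time order, a peak in both 3 h ACBI-1 libraries and in neither 24 h library, was several times more frequent. It held for 1709 regions in DND41, or 6.89%, and for 2346 in MOLT4, or 8.67%. The opposite order outnumbered the returning regions 6.17 to 1 in DND41 and 9.06 to 1 in MOLT4. Under each of the 15 other settings tried in each line it also outnumbered them, by 1.81 to 14.3 times in DND41 and 3.61 to 18 times in MOLT4. Absence was itself more frequent at 24 h, with 22.1% of DMSO-constant regions absent in both libraries against 10.6% at 3 h in DND41, and 24.8% against 11.5% in MOLT4.

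Peak width is the one measure of peak strength in these lists, so the number of returning regions was set beside that expected from width. Within 20 bins of mean DMSO peak width, absence at 3 h and presence at 24 h were multiplied as if the times were independent. This gave 969 regions in DND41 and 967 in MOLT4, and the observed numbers were 0.286 and 0.268 of these. For the opposite order the expected numbers were 2853 and 3532, and the observed ones were 0.599 and 0.664 of these. When each of the 4 ACBI-1 libraries had its own share of peaks per width bin, 314 and 272 returning regions were expected, and the observed numbers were 0.883 and 0.952 of these. The opposite order then lay above its expected numbers of 1304 and 1685, at 1.31 and 1.39 times. The number of returning regions was thus below the count for independent times and slightly below the count for 4 libraries that miss peaks separately at a given width.

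**Figure D1:**
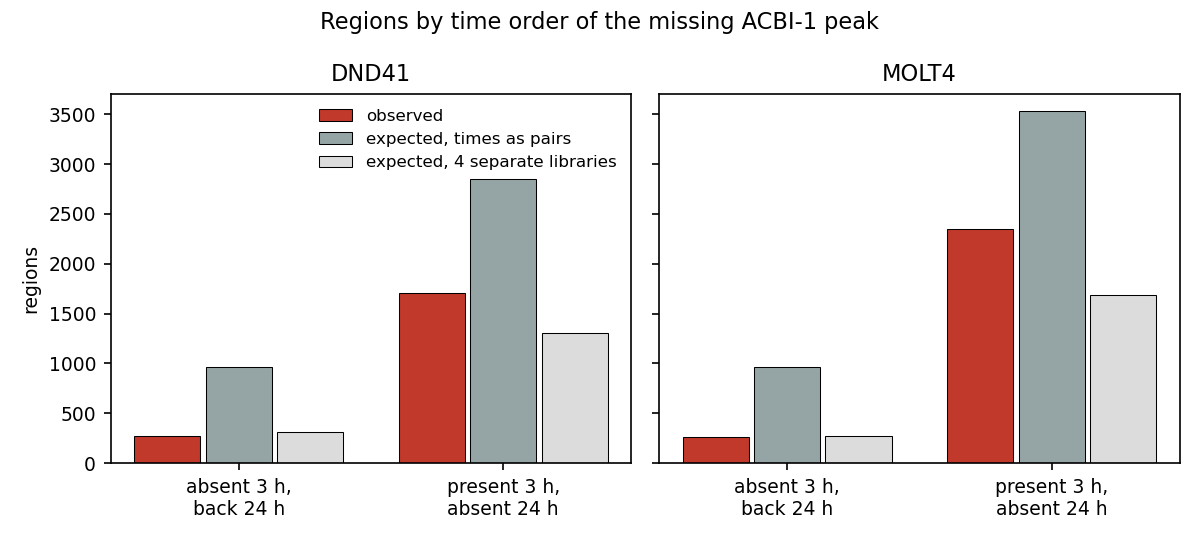
Number of regions (vertical axis) in each time order of the missing ACBI-1 peak, in DND41 and MOLT4, observed and expected from DMSO peak width in 20 bins. The 277 and 259 returning regions lie below the 969 and 967 expected for independent times and close to the 314 and 272 expected for 4 separate libraries.

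The same pattern was also counted in DMSO with the agents exchanged. Of 15789 regions with a peak in all 4 ACBI-1 libraries of DND41, 19 were absent in both 3 h DMSO libraries and present in both 24 h ones, or 0.12%. The opposite order held for 84 of them, or 0.532%. In MOLT4 the numbers were 34 of 16643, or 0.204%, and 74, or 0.445%. DMSO lists were longer than ACBI-1 lists, with 39117 to 46712 peaks against 26145 to 33870, so the exchange does not match list length. It does not match width either. Regions with all 4 DMSO and all 4 ACBI-1 peaks had median DMSO widths of 664 and 685 bp, beside 315 and 321 bp for returning regions. These shares are therefore no background level for the returning regions.

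The ACBI-1 lists were longer at 24 h than at 3 h in DND41 and overlapped between times in MOLT4. DND41 lists held 28762 ± 3702 peaks at 3 h and 32629 ± 730 at 24 h (SD, n = 2 each). MOLT4 lists held 30139 ± 935 at 3 h and 31310 ± 3620 at 24 h (SD, n = 2 each). In DND41 both 24 h lists, of 33145 and 32113 peaks, were longer than both 3 h lists, of 26145 and 31380. Over both lines the mean log2 ratio of 24 h to 3 h was 0.12 and did not pass the test (two-sided exact permutation test within lines, p = 0.333, where 36 exchanges allow no p below 0.0556). Leaving out 1 library loosens the rule. The number of returning regions could then only stay or rise, and how far it rose differed between libraries. In DND41 it was 541 and 1157 without ACBI-1 replicate 1 or 2 of 3 h, 437 and 497 without ACBI-1 replicate 1 or 2 of 24 h, and 464 without DMSO replicate 2 of 3 h. In MOLT4 it was 559 and 863 without ACBI-1 replicate 1 or 2 of 3 h, and 426 and 537 without ACBI-1 replicate 1 or 2 of 24 h.

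Returning regions had narrow DMSO peaks. Their mean DMSO peak width was 160 to 816 bp in DND41, with a median of 315 bp, and 163 to 927 bp in MOLT4, with a median of 321 bp. Regions absent in all 4 ACBI-1 libraries, 1981 in DND41 (7.99%) and 2403 in MOLT4 (8.88%), had medians of 290 and 294 bp. Regions of the opposite order had medians of 397 and 402 bp, and regions with all 4 ACBI-1 peaks 664 and 685 bp. Of 5 classes of equal size by DMSO width, the narrowest held 153 of the 277 returning regions of DND41 and 146 of the 259 of MOLT4. The broadest class held 2 in each line.

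Regions just outside the rule lay close to them in width. With no peak at 3 h and 1 of 2 at 24 h there were 380 regions in DND41, with a median width of 307 bp, and 445 in MOLT4, with 342 bp. With 1 of 2 at 3 h and both at 24 h there were 1144 and 904, with medians of 363 and 387 bp. At the edge of the rule in DND41, the region on chromosome 6 from 42749910 to 42751576 (hg19) had DMSO peaks of 1020 and 786 bp at 3 h and 1135 and 1166 bp at 24 h. Under ACBI-1 it had no peak in replicate 1 and 1014 bp in replicate 2 at 3 h, and 928 and 663 bp at 24 h. That 1 broad peak kept it out.

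The peak that was back at 24 h was somewhat narrower than its DMSO counterpart. In DND41 the returning regions had median widths of 308 and 326 bp in the 2 ACBI-1 libraries of 24 h, beside 365 and 349 bp in the 2 DMSO libraries of 24 h. In MOLT4 they had 324 and 292 bp beside 387 and 329 bp. The median ratio of ACBI-1 to DMSO width at 24 h was 0.882 in DND41 and 0.906 in MOLT4, and regions with all 4 ACBI-1 peaks had 0.904 and 0.902. The peak was wider with ACBI-1 in 108 of 277 (39.0%) and 91 of 259 (35.1%) returning regions, beside 25.7% and 25.4% of regions with all 4 ACBI-1 peaks. Among regions with 1 of 2 peaks at 3 h and both at 24 h it was wider in 36.8% and 34.2%. In 246 of 277 and 224 of 259, both 24 h ACBI-1 peaks overlapped bases covered by all 4 DMSO peaks. A 3 h ACBI-1 peak lay within 500 bp of 8 returning regions in DND41 (2.89%) and of 18 in MOLT4 (6.95%), beside 2.02% and 2.95% of regions absent at both times.

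The DMSO libraries, of which the rule used only the presence of a peak, differed between times at the returning regions in the same direction as the ACBI-1 libraries. In DND41 the median DMSO width was 295 and 213 bp in the 2 libraries of 3 h and 365 and 349 bp in those of 24 h, without overlap. In MOLT4 it was 253 and 272 bp at 3 h and 387 and 329 bp at 24 h, also without overlap. Peaks were broader at 24 h in general, so each width was ranked within its own list. In DND41 the returning regions went from percentiles 43.7 and 35.3 at 3 h to 52.3 and 48.4 at 24 h. Region by region the median change was 11.2 percentile points, beside 0.03 for all DMSO-constant regions, and 197 of 277 (71.1%) ranked higher at 24 h, beside 50.2% of all. In MOLT4 the percentiles were 37.1 and 37.0 at 3 h and 43.7 and 37.4 at 24 h, so replicate 2 of 24 h was barely above the 3 h libraries. The median change there was 4.16 points, beside -2.99 for all, and 158 of 259 (61.0%) ranked higher at 24 h, beside 36.5%.

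Regions just outside the rule shared this shift in part. Those with 1 of 2 peaks at 3 h and both at 24 h changed by 7.18 points in DND41 and 1.14 in MOLT4, and those with none at 3 h and 1 of 2 at 24 h by 4.11 and 0.60 points. Regions absent at both times changed by 1.93 points in DND41 and -4.53 in MOLT4, and regions of the opposite order by -1.91 and -7.33 points. The returning regions of a line also ranked higher at 24 h in DMSO libraries of the other line, relative to all regions, where all 4 had a peak. The 134 such regions of DND41 changed by 1.64 points in MOLT4, beside -2.41 for the 18483 regions with a peak in each of the 8 DMSO libraries. The 94 such regions of MOLT4 changed by 9.50 points in DND41, beside -0.12. Regions just outside the rule did so too. Those with 1 of 2 peaks at 3 h and both at 24 h changed by 2.36 points in MOLT4 and 4.51 in DND41. Those with none at 3 h and 1 of 2 at 24 h changed by 0.57 and 3.19 points. A difference between 3 h and 24 h libraries at the returning regions was thus present without ACBI-1. How much of the return it accounts for was not tested.

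**Figure D2:**
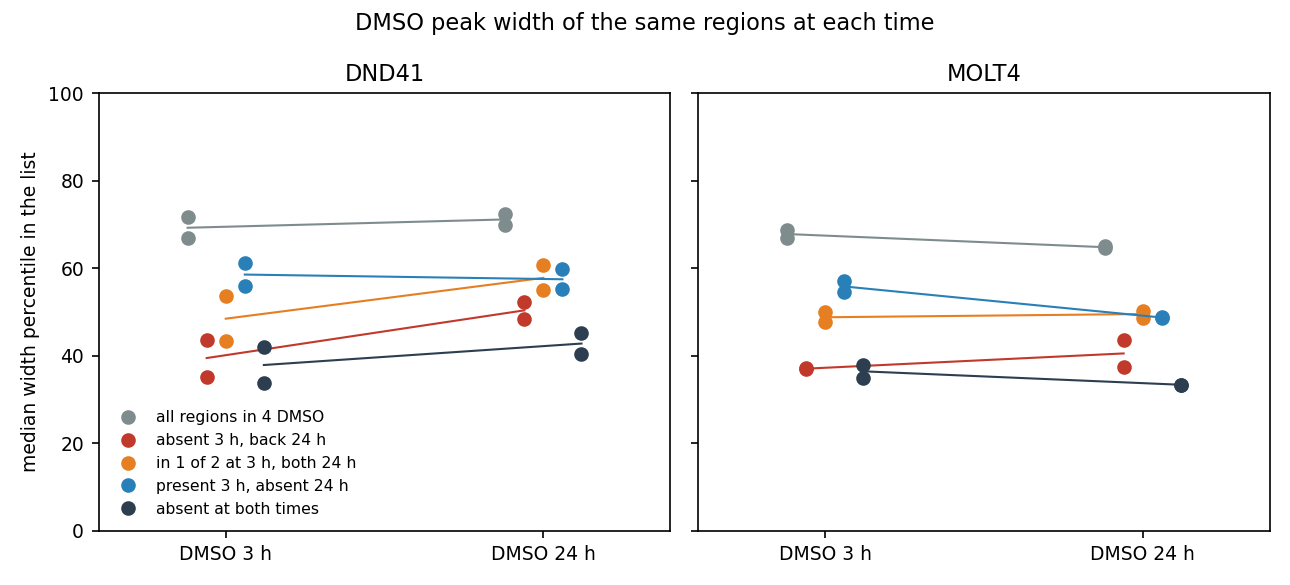
Median percentile of peak width within each DMSO list (vertical axis) at 3 h and 24 h, for 5 classes of regions in each line. Points are libraries and lines join group means; the returning regions rise from 43.7 and 35.3 to 52.3 and 48.4 in DND41 and reach 43.7 and 37.4 in MOLT4.

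The line that did not choose a region gave a measure independent of the rule. Of the 277 returning regions of DND41, 49.5% and 52.7% had a peak in the 2 MOLT4 ACBI-1 libraries of 3 h, and 65.7% and 64.3% in the 2 of 24 h. Both 24 h libraries were above both 3 h libraries. Over all DMSO-constant regions of DND41 the MOLT4 percentage fell with time, from a mean of 72.1% at 3 h to 64.5% at 24 h. In MOLT4 DMSO libraries the returning regions had a peak in 69.7% and 66.4% at 3 h and in 66.8% and 66.1% at 24 h. The MOLT4 ACBI-1 libraries were therefore below the DMSO libraries at 3 h and just below them at 24 h.

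MOLT4 returning regions gave the same order in DND41 at a lower level. They had a peak in 25.9% and 32.8% in the ACBI-1 libraries of 3 h and in 40.2% and 40.9% in those of 24 h. Over all DMSO-constant regions of MOLT4 the mean in DND41 ACBI-1 libraries went from 64.5% to 59.2%. The DND41 DMSO libraries had a peak in 59.5% and 45.2% of the returning regions at 3 h and in 57.1% and 53.7% at 24 h, and here the times overlapped. ACBI-1 libraries at 24 h stayed below all 4 of these.

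The mean change from 3 h to 24 h with ACBI-1 was 13.9 percentage points for DND41 regions in MOLT4 and 11.2 points for MOLT4 regions in DND41. With DMSO it was -1.62 and 3.09 points. Among peaks of at least 170 bp the DMSO libraries also rose, by 7.17 and 9.02 points, beside 16.1 and 14.8 points with ACBI-1. Regions absent at both times changed by -12.6 and -11.8 points with ACBI-1, and those of the opposite order by -28.2 and -22.3. The rise was not limited to the returning regions: those with 1 of 2 peaks at 3 h and both at 24 h changed by 4.81 points in MOLT4, where the times overlapped, and by 10.3 points in DND41, where they did not. Those with none at 3 h and 1 of 2 at 24 h changed by 0.13 and -3.82 points. Region by region, 85 returning regions of DND41 had more MOLT4 ACBI-1 peaks at 24 h than at 3 h and 28 had fewer, whereas over all DMSO-constant regions 5.88% had more and 16.6% fewer. For MOLT4 regions in DND41, 65 had more and 23 fewer, beside 6.17% and 13.5% of all. The size of the change differed when 1 ACBI-1 library was left out of the choice, which loosens the rule and adds regions just outside it. For MOLT4 regions it was 4.93 and 3.72 points when replicate 1 or 2 of 24 h was not used to choose them. For DND41 regions it was 8.12 and 8.45 points without replicate 1 or 2 of 24 h and 6.66 points without replicate 2 of 3 h. In each line 1 tag went with 1 time, so the agreement of the lines does not separate time from the tag.

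**Figure D3:**
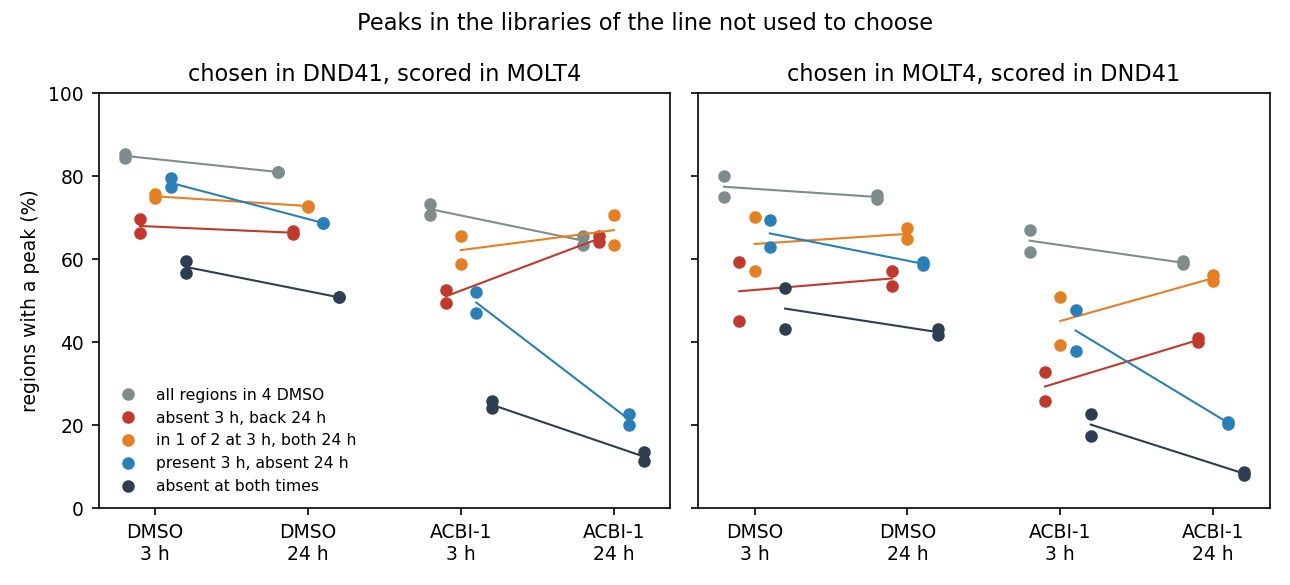
Percentage of regions with a peak (vertical axis) in each library of the line that was not used to choose them, by agent and time. Points are libraries and lines join the means of 2; with ACBI-1 the returning regions rise from 49.5 and 52.7% to 65.7 and 64.3% in MOLT4 and from 25.9 and 32.8% to 40.2 and 40.9% in DND41, and regions with 1 of 2 peaks at 3 h and both at 24 h also rise in the mean, while the 3 other classes drawn fall.

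The share of returning regions with peaks in the other line was lower than that of all DMSO-constant regions, given here as a description. Of the 277 of DND41, 134 (48.4%) had a peak in all 4 MOLT4 DMSO libraries, beside 74.5% of all. No MOLT4 DMSO library had a peak in 45 (16.2%, beside 9.67%), and no MOLT4 library at all in 27 (9.75%, beside 8.77%). Of the 259 of MOLT4, 94 (36.3%) had all 4 DND41 DMSO peaks, beside 68.3% of all. No DND41 DMSO library had a peak in 82 (31.7%, beside 16.8%), and no DND41 library at all in 75 (29.0%, beside 16.2%). These shares were not adjusted for the narrow peaks of the returning regions. Among the 134, 81 (60.4%) had all 4 ACBI-1 peaks in MOLT4, 9 (6.72%) were absent at 3 h and back at 24 h there too, 4 were absent at both times and 0 showed the opposite order, which allows a share of up to 2.24% by counting error alone. Over those 18483 regions these MOLT4 states held 72.9%, 0.509%, 4.10% and 6.40%. Among the 94 of MOLT4, 34 (36.2%) had all 4 ACBI-1 peaks in DND41 and 9 (9.57%) were returning there too, beside 73.0% and 0.725% of the 18483. A further 8 (8.51%) were absent at both times and 2 (2.13%) showed the opposite order, beside 4.13% and 5.71%.

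The 9 shared regions were 6.72% of the 134 and 9.57% of the 94. If the lines were independent, 0.681 shared regions would be expected, and 1.403 when independent only within 20 width bins. Sharing above the expected number was not particular to returning regions. For the opposite order, 274 shared regions stood beside 127 expected within width bins. Of 763 such regions absent at both times in DND41, 209 (27.4%) were so in MOLT4, beside 4.10% of the 18483. Leaving out 1 library loosens the rule, so the number of shared returning regions could not fall. It was then 9 to 21, with 2.87 to 7.21 times the expected number. It reached 20 and 21 without replicate 1 or 2 of MOLT4 ACBI-1 at 3 h, and 16 without either DND41 ACBI-1 library of 3 h. The widths of the 9 shared returning regions in every library follow, in the order DMSO 3 h and then DMSO 24 h wherever 4 values are given.

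On chromosome 1 from 198904022 to 198904937 the DMSO peaks of DND41 were 315 and 264 bp wide at 3 h and 859 and 904 bp at 24 h. The ACBI-1 peaks of 24 h were 873 and 900 bp, as broad as the DMSO peaks of that time. In MOLT4 the DMSO peaks were 294 and 322 bp at 3 h and 405 and 396 bp at 24 h, and the ACBI-1 peaks of 24 h were 705 and 237 bp. The times did not overlap in DMSO in either line.

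The region on chromosome 14 from 106667294 to 106667756 lies in the immunoglobulin heavy-chain locus, whose variable segments are rearranged in B cells. Its DND41 peaks were 317, 317, 268 and 350 bp with DMSO, and 395 and 382 bp with ACBI-1 at 24 h. Its MOLT4 peaks were 243, 180, 400 and 348 bp with DMSO, and 452 and 247 bp with ACBI-1 at 24 h. In DND41 the peaks that were back were broader than all 4 DMSO peaks.

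On chromosome 17 from 16394879 to 16395984 the DND41 DMSO peaks were 399 and 286 bp at 3 h and 592 and 590 bp at 24 h, with 453 and 401 bp under ACBI-1 at 24 h. In MOLT4 the order of the times was the other way, with 471 and 720 bp at 3 h and 480 and 329 bp at 24 h, though the times overlapped. The MOLT4 ACBI-1 peaks of 24 h were 598 and 354 bp. The region on chromosome 19 from 6481041 to 6482131 had DND41 DMSO peaks of 497, 152, 329 and 613 bp and ACBI-1 peaks of 462 and 405 bp. Its MOLT4 DMSO peaks were 211, 313, 434 and 264 bp, and both ACBI-1 peaks, 423 and 465 bp, were near or above the broadest of these.

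Chromosome 2 held 2 of the 9. From 30936857 to 30937375 the DMSO peaks were 176, 239, 414 and 220 bp in DND41 and 230, 146, 493 and 239 bp in MOLT4, with ACBI-1 peaks of 283 and 269 bp and of 267 and 291 bp at 24 h. From 43251569 to 43252739 they were 419, 298, 358 and 822 bp in DND41 and 222, 246, 161 and 206 bp in MOLT4, with ACBI-1 peaks of 376 and 698 bp and of 197 and 452 bp. On chromosome 20 from 31330161 to 31331808 the widths varied between replicates, with DMSO peaks of 850, 274, 302 and 653 bp in DND41 and 503, 437, 439 and 1325 bp in MOLT4. The ACBI-1 peaks of 24 h were 618 and 503 bp and 233 and 743 bp.

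The last 2 regions, at 150807958 to 150808558 on chromosome 7 and at 1971973 to 1972447 on chromosome 8, were narrow in DND41 DMSO libraries, at 279, 180, 182 and 219 bp and at 273, 151, 197 and 322 bp. Their DND41 ACBI-1 peaks of 24 h were 316 and 299 bp and 184 and 280 bp. In MOLT4 both were broader with DMSO at 24 h, at 401 and 574 bp and at 451 and 318 bp, than at 3 h, at 297 and 260 bp and at 133 and 253 bp. Their MOLT4 ACBI-1 peaks of 24 h were 433 and 304 bp and 260 and 353 bp.

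**Figure D4:**
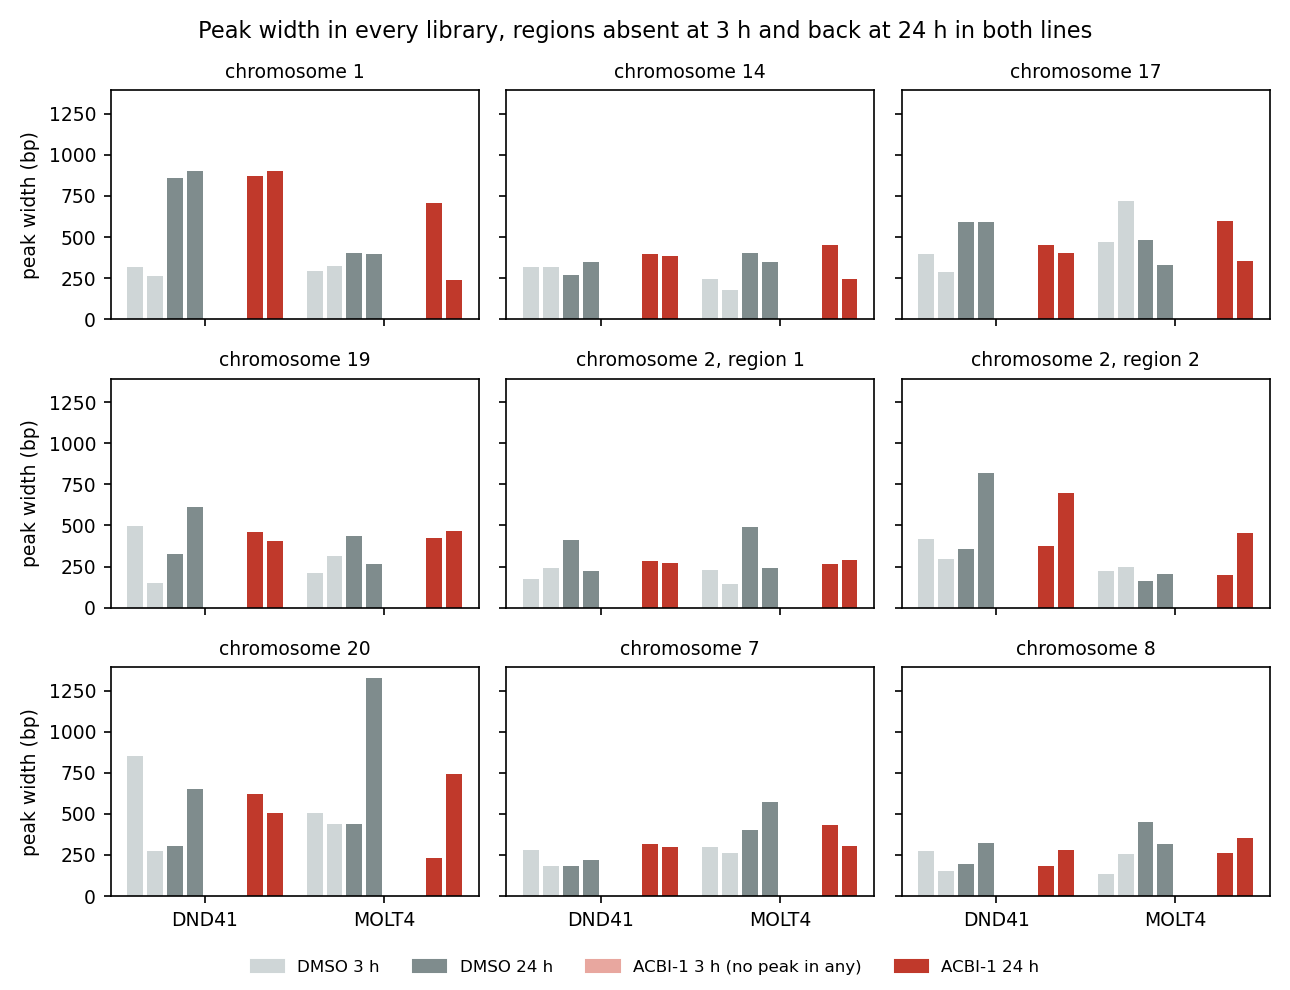
Peak width in bp (vertical axis) in each of the 16 libraries at the 9 regions absent at 3 h of ACBI-1 and back at 24 h in both lines; bars within a line run from DMSO 3 h and 24 h to ACBI-1 3 h and 24 h, and a gap is a list with no peak. On chromosome 1 the 24 h bars of DND41 reach 859 to 904 bp with either agent, against 315 and 264 bp with DMSO at 3 h.

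Among the regions chosen in 1 line, those of the highest mean DMSO width percentile over both times are given next. A missing peak at 3 h gives no size of the loss. In DND41 the region on chromosome 1 from 27691866 to 27693180 had DMSO peaks of 844 and 325 bp at 3 h and 1069 and 1027 bp at 24 h, none at 3 h of ACBI-1, and 856 and 480 bp at 24 h. MOLT4 had a peak there in all 8 libraries, of 636 to 1124 bp with DMSO and 396 to 675 bp with ACBI-1. On chromosome 7 from 150382159 to 150383694 the DND41 DMSO peaks were 413 and 490 bp at 3 h and 1239 and 1109 bp at 24 h, and the ACBI-1 peaks of 24 h were 288 and 281 bp. At the first region both peaks that were back lay within the range of the 4 DMSO widths, though below both of 24 h. At the second they stayed below all 4 DMSO widths. The other 3 broadest of DND41 were at 128788217 to 128789273 on chromosome X, at 5595517 to 5596482 on chromosome 7 and at 139581124 to 139582045 on chromosome 9, with ACBI-1 peaks of 24 h of 187 and 812, 193 and 350, and 252 and 373 bp.

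In MOLT4 the broadest was a MOLT4-restricted region on chromosome 3 from 184870314 to 184871509, with no peak in any of the 8 DND41 libraries. Its DMSO peaks were 1029 and 752 bp at 3 h and 984 and 944 bp at 24 h, and its ACBI-1 peaks of 24 h were 332 and 264 bp. It thus came back at well under its DMSO width in both replicates. The region on chromosome 15 from 100870289 to 100871275 went opposite ways in the lines. MOLT4 had DMSO peaks of 555, 530, 911 and 733 bp, no ACBI-1 peak at 3 h and 303 and 194 bp at 24 h, whereas DND41 had ACBI-1 peaks of 498 and 691 bp at 3 h and none at 24 h.

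The broadest peaks under ACBI-1 at 24 h were at other places. In MOLT4 the region on chromosome 1 from 155139559 to 155140557 had DMSO peaks of 282, 158, 237 and 311 bp and ACBI-1 peaks of 996 and 938 bp at 24 h. On chromosome 22 from 39745400 to 39746464 the DMSO peaks were 153, 242, 243 and 352 bp and the ACBI-1 peaks 674 and 698 bp. At both the peak at 24 h was broader than in any DMSO library of the line. This did not hold on chromosome 12 from 90692336 to 90693677, also among the 3 of MOLT4. There the DMSO peaks were 161, 667, 974 and 663 bp and the ACBI-1 peaks 593 and 909 bp. In DND41 the region on chromosome 9 from 135753277 to 135754323 had DMSO peaks of 147 and 259 bp at 3 h and 417 and 537 bp at 24 h, and ACBI-1 peaks of 600 and 904 bp at 24 h. On chromosome X from 133055868 to 133057756 the DND41 DMSO peaks were 478, 270, 1421 and 637 bp. The ACBI-1 peaks of 24 h, 528 and 771 bp, lay within that range.

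The chromosomes did not hold equal shares. On chromosome 19, 21 of 933 DMSO-constant regions of DND41 (2.25%) were returning and 10 (1.07%) showed the opposite order, against 1.12% and 6.89% over all chromosomes. In MOLT4 chromosome 19 had 16 of 1075 (1.49%) returning and 14 (1.30%) in the opposite order, against 0.957% and 8.67%. On this chromosome alone the returning regions outnumbered the opposite order in both lines. On chromosome 22 of MOLT4 there were 9 of each. Chromosome 13 had the highest share of the opposite order in MOLT4, 97 of 740 (13.1%), and 6 returning (0.811%).

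Chromosomes 16, 17, 19, 20 and 22, gene-dense chromosomes grouped after their values were seen, held 22.02% of the returning regions of DND41 and 22.4% of those of MOLT4. They held 14.04% and 15.4% of all DMSO-constant regions and 7.14% and 6.10% of the opposite order. The whole lists also shifted on these chromosomes with time and agent. In MOLT4 they held 12.1 and 13.2% of the peaks with DMSO at 3 h and 15.1 and 15.1% at 24 h, and 14.3 and 13.8% with ACBI-1 at 3 h and 16.5 and 17.2% at 24 h. In DND41 the DMSO lists held 10.9 and 10.8% at 3 h and 11.3 and 11.5% at 24 h, whereas the ACBI-1 lists held 12.02 and 11.2% and then 10.9 and 11.3%. The part of this shift of whole lists in the chromosome pattern was not tested. Single chromosomes of the group differed, with 0.831% returning on chromosome 22 of DND41 and 2.14% on chromosome 17, against 1.12% over all chromosomes. Over the 23 chromosomes the returning shares of the lines had a Pearson r of 0.109, beside 0.921 for the opposite order. The chromosome pattern of returning regions was thus not shared closely by the lines.

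**Figure D5:**
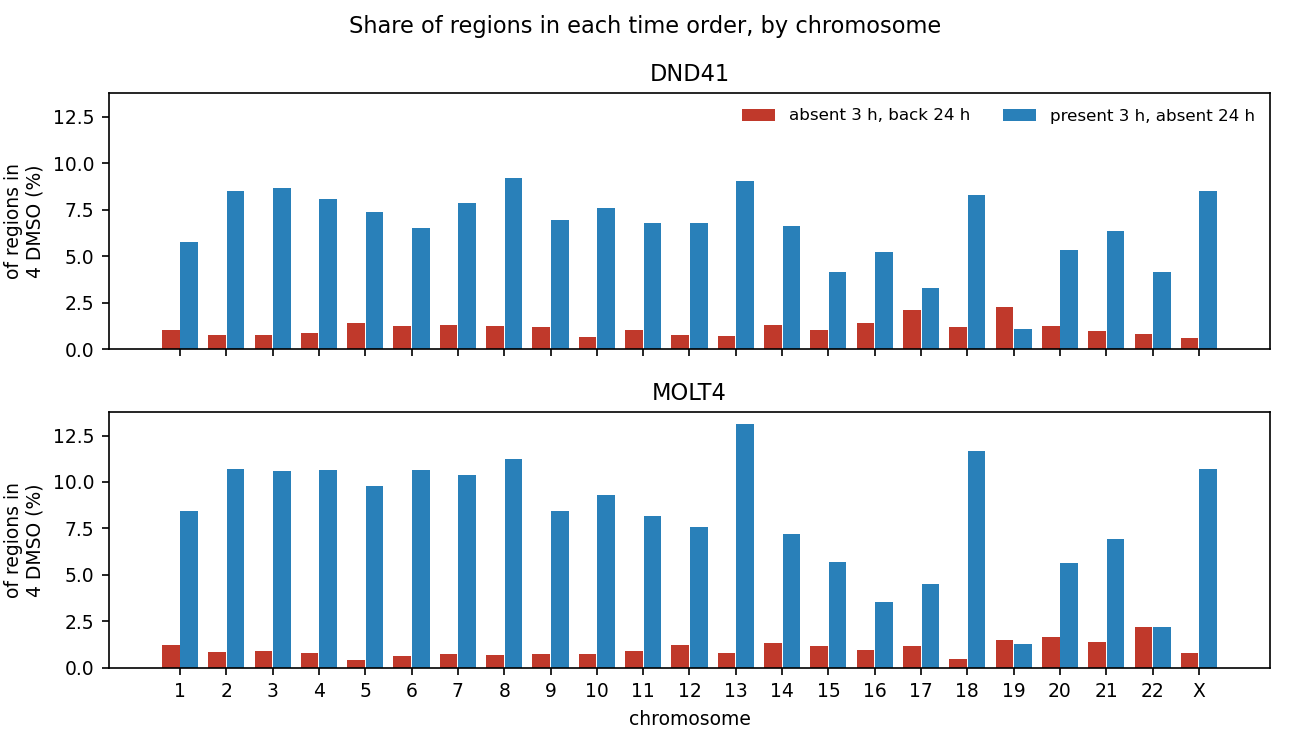
Percentage of the DMSO-constant regions of each chromosome (vertical axis) that were absent at 3 h and back at 24 h, or present at 3 h and absent at 24 h, in each line. On chromosome 19 the returning share is 2.25% and 1.49% and the opposite order 1.07% and 1.30%, and elsewhere the opposite order is as high or higher.

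Returning regions lay nearer to constantly open chromatin than the other lost classes. The median distance to the nearest region with a peak in all 16 libraries was 35.9 kb in DND41 and 36.6 kb in MOLT4. It was 48.4 and 51.1 kb for all DMSO-constant regions, 68.5 and 74.4 kb for regions absent at both times, and 64.7 and 81.9 kb for the opposite order. These distances were not adjusted for the mix of chromosomes, which differed between the classes. The median distance from a returning region to the nearest other one was 0.93 Mb, which was not set beside a distance for other regions.

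Genes of T-cell identity, T-cell leukaemia, the cell cycle and SWI/SNF were examined by position, with hg19 gene spans taken from general knowledge of that build. Within 50 kb of 63 such genes lay 440 DMSO-constant regions of either line, and 7 of these (1.59%) were returning, against 1.58% of all 33382. The share near these genes was thus at the level of the genome as a whole. Of the 7, 3 were near T-cell transcription factor genes, 1 near a surface gene, 1 near a cell cycle gene, 1 near a SWI/SNF gene and 1 near a recombination gene. None of the 54 regions near the 9 leukaemia and NOTCH genes was returning, but 54 are too few to tell this from a share of 1.58%.

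Inside gene spans there were 3. In RUNX3, a Runt-domain factor of T-cell development, the region on chromosome 1 from 25256668 to 25257245 had MOLT4 DMSO peaks of 272, 315, 215 and 382 bp and was back at 295 and 241 bp. DND41 had a peak there in all 8 libraries, of 298 to 509 bp with DMSO and 196 to 409 bp with ACBI-1. In IKZF1, which encodes Ikaros, a zinc finger factor and tumour suppressor of lymphoid leukaemia, the region on chromosome 7 from 50369283 to 50370535 had DND41 DMSO peaks of 400, 459, 286 and 550 bp and was back at 205 and 457 bp. The IKZF1 span used did not match the length in a reference table, so its place in the gene is uncertain. In MOLT4 it had a peak in replicate 1 of each of the 4 groups and in no replicate 2.

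In CCND3, the gene of the G1 cyclin D3, the region on chromosome 6 from 42016254 to 42016739 lay across the upstream end of the span. Its DND41 DMSO peaks were 343 and 257 bp at 3 h and 459 and 384 bp at 24 h, and it was back at 279 and 212 bp. MOLT4 had DMSO peaks of 238, 212, 323 and 269 bp and, with ACBI-1, 178 bp in 1 library of 3 h and 194 bp in 1 of 24 h. The 4 others lay within 50 kb of TCF3 (an E protein), CD8A (a T-cell co-receptor) and ARID1B (a SWI/SNF subunit), all in MOLT4, and of RAG1 (a recombinase subunit, also with an unmatched span) in DND41. Near CD8A, on chromosome 2 from 87066603 to 87066972, DND41 had all 4 DMSO peaks and no ACBI-1 peak at either time, while MOLT4 was back at 344 and 233 bp.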

How the data were processed

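Each deposited file was the peak list of 1 library, with 4 columns for chromosome, start, end and peak name. Per the submitters' processing notes, Bowtie2, Picard, SAMtools, MACS2 and the hg19 build were used; roles, settings and pooling are not given in the sources used here. Heights, p-values, summits and read totals were not analysed here. Coordinates are hg19, counted from 1. A library's value is the width of its widest peak in the region. Regions, classes and expected numbers were computed with Python 3.11.15, numpy 2.4.6 and pandas 2.3.3, and the counting was tested on simulated presence calls.

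Groups followed the titles. The regions, gene list and comparisons were chosen with earlier results of these data known. Regions were named by position. The sets were those returning in both lines and those inside a listed gene. In each line they also held the 5 of highest mean DMSO width percentile and the 3 of highest mean percentile with ACBI-1 at 24 h. The last set was the broadest just outside the rule or of the opposite order. Of this last set and of the 5 of MOLT4, only some are given. All 63 listed genes were on the same chromosome in the RefSeq GRCh38 table, and 54 had a length within 5% of the span used; IKZF1 and RAG1 did not. No sequence is shown.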

Additional observations from a re-analysis of the deposited data

How the results depend on the processing

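Width stands in for signal and depth is unknown, so a weak site and a closed site cannot be told apart, and numbers of returning regions depend on list length. With lists of equal length the returning regions were 83 in DND41 and 70 in MOLT4 (315 and 353 expected), the opposite order was 1260 in MOLT4 (1706 expected in DND41 and 1829 in MOLT4), 2 regions were shared by the lines, and the change of DND41 regions in MOLT4 was 10.8 points with ACBI-1. With DMSO that change was 4.22 points. For MOLT4 regions in DND41 the change was 14.3 points with ACBI-1 and 8.57 with DMSO. With 4 separate libraries the expected numbers were 314 and 272 for returning regions and 1304 and 1685 for the opposite order. Leaving out 1 library loosens the rule, so counts of regions could only stay or rise. It gave 304 to 1157 returning regions in DND41 (1033 to 2320 expected) and 296 to 863 in MOLT4 (1112 to 1937 expected). For the opposite order it gave 1711 to 3108 in DND41 (2880 to 3943 expected) and 2366 to 3552 in MOLT4 (3622 to 4771 expected). The regions shared by both lines were then 9 to 21, and the change from 3 h to 24 h in the other line 6.66 to 15.7 points for DND41 regions and 3.72 to 14.7 for MOLT4 regions. These measures were put through other settings after the data were seen. The change with ACBI-1 stayed above 0 and the shared number above that expected from width in each of them. The mean log2 ratio of ACBI-1 list length, 24 h to 3 h, was -0.088 for peaks found in another library (exact permutation p = 0.278), and the cause was not tested. With a replicate block it was 0.1192 (exact permutation p = 0.375), and the labels do not say that a replicate number marks a shared culture or day. All other settings tried for these numbers stayed within 1.5 times the values reported or kept the sign and side of the threshold.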

Other observations

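Of the 527 returning regions, 22 had another within 50 kb, which was not set beside a number for other regions. On chromosome 14 the region from 105189767 to 105190808 and its neighbour, 43948 bp further on, were such a pair. In DND41 the first had DMSO peaks of 701, 133, 790 and 756 bp and came back at 711 and 551 bp, and MOLT4 had a peak there in all 8 libraries. On chromosome 20 there were 2 such pairs, whose first regions, at 62579700 to 62581303 and 62733313 to 62733888, were returning in MOLT4; their neighbours lay 19455 and 17639 bp further on. At the first the MOLT4 DMSO peaks were 868, 257, 1280 and 993 bp and the ACBI-1 peaks of 24 h 462 and 435 bp. At the second they were 293, 169, 465 and 323 bp, then 414 and 412 bp. These regions were picked after their values were seen.

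The broadest regions of the opposite order were the following. In DND41 the region on chromosome 10 from 45408524 to 45409706 had DMSO peaks of 928, 953, 1026 and 954 bp, ACBI-1 peaks of 784 and 813 bp at 3 h and none at 24 h. In MOLT4 the region on chromosome 2 from 46775769 to 46776968 had DMSO peaks of 854, 1097, 1072 and 1110 bp, ACBI-1 peaks of 605 and 1063 bp at 3 h and none at 24 h.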
